A study of Mus musculus with 4 samples.

Results

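The genes described here are 9 genes that bind retinoids or convert one retinoid into another: *Stra6*, *Rdh10*, *Dhrs3*, *Aldh1a1*, *Aldh1a2*, *Aldh1a3*, *Crabp1*, *Crabp2* and *Cyp26b1*. They were chosen by name, and each was found in the RNA-Seq files through the RefSeq accession of its transcripts. The 9 genes have 14 transcripts among the 29082 transcripts listed, and each gene is represented by the transcript with most reads over the 4 libraries, among 22463 genes that have a symbol. Of the 9 genes, 5 had an RPKM above 1 in at least 1 library (*Crabp1*, *Crabp2*, *Cyp26b1*, *Dhrs3* and *Rdh10*), as did 11861 genes in all. *Crabp2* passed through the Ad-GFP library of day 0 alone, and the other 4 genes did not pass. RPKM is a read count scaled by the length of the exons and by the mapped reads of the library, a level per length that allows genes to be compared with each other.

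The study asked what the histone H3K4 mono- and di-methyltransferase MLL4 (gene symbol *Kmt2d*) does when brown preadipocytes become fat cells. All cells were brown preadipocytes of E18.5 embryos of the C57BL/6J background, immortalized with SV40T, and all carried MLL3-/-, so that the control cells lacked MLL3 too. Infection with Ad-GFP left the floxed MLL4 alleles in place, and the labels call these libraries WT, with the genotype MLL3-/-, and they are named control cells here. Infection with Ad-Cre deleted MLL4, and the labels give the genotype MLL3-/-;MLL4-/- and the name MLL4 KO. RNA was taken at day 0, which was 2 days after confluence, and at day 2 of adipogenesis induced with insulin, T3, indomethacin, dexamethasone and IBMX. There was 1 library for each of the 4 conditions, so differences between conditions were not checked against replicates, no p-value is given, and all intervals are 95% confidence intervals that cover counting error of the reads alone. Whether the line came from 1 clone or 1 embryo is not given in the sources used here.

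Cells take up retinol from its plasma carrier through receptors such as STRA6, oxidize it to retinal and then to retinoic acid, and break retinoic acid down with enzymes of the CYP26 family. Retinoic acid is the ligand of the nuclear receptors RAR, which act as dimers with RXR on pairs of hexamer motifs in DNA. In fat tissue, retinoids are stored as esters and retinoic acid is known to restrain the early steps of fat cell formation.

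Retinoic acid receptors are known to bind direct repeats of hexamers related to AGGTCA, so these were looked for in the promoters. RefSeq promoter windows (GRCm38.p6, from 250 bases before to 50 bases after each start) were available for 6 of the 9 genes, in 12 windows. *Rdh10*, *Aldh1a3* and *Crabp2* had none in the table used. The hexamers searched were AGGTCA, its variant AGTTCA, the hexamer GGGTCA and its variant GGTTCA. A direct repeat was any pair of them in the same orientation with 1, 2 or 5 bases between them, on either strand. None of the 12 windows held such a direct repeat, and 0.588% of the 32851 windows of all genes did. At least 1 AGGTCA or AGTTCA, paired or not, lay in 27.7% of all windows and in the *Stra6* window at chr9:58133825-58134124. The windows of *Rarb* and *Cyp26a1*, textbook targets of retinoic acid shown to illustrate the motif and named after their values were seen, each held a repeat with a spacer of 5 bases, which 0.0974% of all windows did. The *Rarb* window (chr14:16575427-16575726, minus strand) held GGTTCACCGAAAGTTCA on the strand of the gene, and the *Cyp26a1* window (chr19:37697558-37697857, plus strand) held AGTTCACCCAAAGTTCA on the other strand. *Rarb* had 13, 11, 7 and 6 reads in Ad-GFP day 0, Ad-GFP day 2, Ad-Cre day 0 and Ad-Cre day 2, and *Cyp26a1* had 0, 0, 1 and 1, so neither of these genes reached an RPKM of 1.

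The 250 bases before the start are shown for *Crabp1*, *Cyp26b1* and *Dhrs3*, the 3 genes with at least 100 reads whose levels ranged most widely over the 4 libraries. The upstream windows lie at chr9:54764498-54764747 (plus strand), chr6:84593811-84594060 (minus strand) and chr4:144892577-144892826 (plus strand, the first of 3 *Dhrs3* windows), and capitals mark the GC box GGGCGG on either strand, a motif looked for after the data were seen.
Crabp1: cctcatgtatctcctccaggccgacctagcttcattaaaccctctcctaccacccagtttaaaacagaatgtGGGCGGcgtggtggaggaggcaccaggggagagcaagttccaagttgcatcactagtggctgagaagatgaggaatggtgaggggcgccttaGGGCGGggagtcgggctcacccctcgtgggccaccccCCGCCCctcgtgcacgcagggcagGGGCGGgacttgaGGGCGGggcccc
Cyp26b1: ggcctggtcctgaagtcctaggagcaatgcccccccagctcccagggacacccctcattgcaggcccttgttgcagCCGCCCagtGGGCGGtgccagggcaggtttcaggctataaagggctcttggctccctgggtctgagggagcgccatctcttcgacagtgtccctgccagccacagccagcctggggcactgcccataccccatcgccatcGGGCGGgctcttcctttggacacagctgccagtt
Dhrs3: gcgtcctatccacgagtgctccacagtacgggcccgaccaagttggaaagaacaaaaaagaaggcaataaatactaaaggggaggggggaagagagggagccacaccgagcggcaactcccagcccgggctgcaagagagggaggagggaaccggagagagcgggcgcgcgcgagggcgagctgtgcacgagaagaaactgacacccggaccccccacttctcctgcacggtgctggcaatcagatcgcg
The *Crabp1* stretch held 5 GC boxes, the *Cyp26b1* stretch 3 and the *Dhrs3* stretch 0, where 32.7% of the windows of all genes held at least 1. The share of G and C in the 300-base window was 65.0% for *Crabp1*, 62.3% for *Cyp26b1* and 58.7% for the first *Dhrs3* window, against a median of 52.7% over all windows. In the other *Dhrs3* windows it was 45% and 45.3%, below that median.

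The deposited counts summed to between 15831915 and 22099995 reads per library. *Kmt2d* had RPKM values from 15.7 to 18.7, and a count over the whole transcript cannot show whether the floxed exons were lost, so it does not check the labels. All 6 preadipocyte markers (*Pdgfra*, *Pdgfrb*, *Thy1*, *Cd34*, *Ly6a*, *Dlk1*) passed an RPKM of 1, and so did all 6 fat cell markers, whose summed RPKM was 30.4 and 15.7 at day 0 and 1999 and 490 at day 2 in control and MLL4 KO cells. Of 6 brown fat cell markers 2 passed (*Prdm16* and *Ebf2*), and *Cidea* had no read in any library. In Ad-GFP day 0, Ad-GFP day 2, Ad-Cre day 0 and Ad-Cre day 2, *Ucp1* had 1, 0, 1 and 1 reads. *Dio2* had 0, 5, 0 and 0 reads and *Ppargc1a* 4, 9, 0 and 0 in the same order. Of the markers of other cell types, 1 of 6 for skeletal muscle passed (*Acta1*; summed RPKM 18.4, 0.419, 48.5 and 3.47 in Ad-GFP day 0, Ad-GFP day 2, Ad-Cre day 0 and Ad-Cre day 2, with *Myog* and *Pax7* at 0), and 1 of 5 for mesothelial cells (*Krt19*). None passed for endothelial cells, macrophages or Schwann cells. The ratios of the Ad-Cre library of day 2 moved with transcript length: the median log2 ratio to Ad-GFP day 2 was 0.56 in the shortest 5% of genes and -0.80 in the longest 5%. The part of this in the ratios below was not tested beyond recomputing each ratio with the length trend removed, a setting added after seeing the data.

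**Figure D1:**
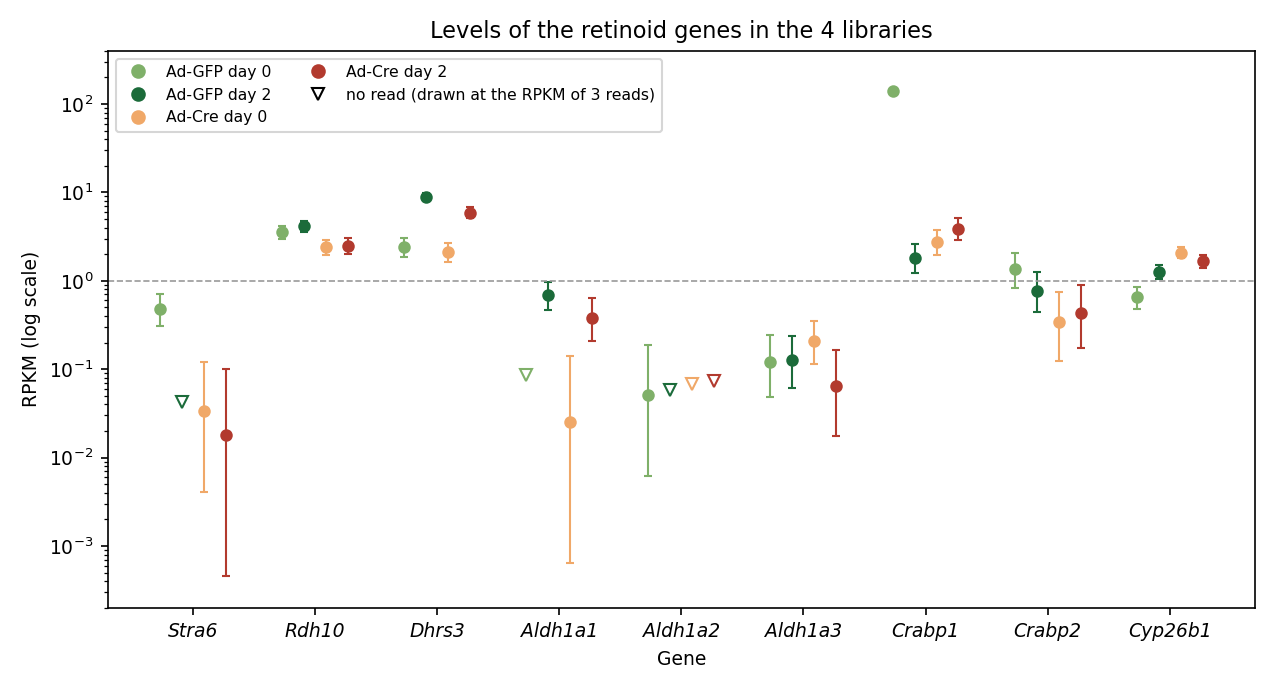
RPKM of the 9 retinoid genes (log axis) in the 4 libraries, with bars for the exact Poisson 95% interval of the reads and a dashed line at an RPKM of 1. Open triangles mark genes without a read, drawn at the RPKM of 3 reads. Crabp1 stands far above the other genes in Ad-GFP day 0 alone.

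*Crabp1*, a small cytosolic protein that binds retinoic acid (NM_013496; NCBI37/mm9 chr9:54612555-54620917, plus strand, 4 exons), had the highest level and the widest range of the 9 genes. Its RPKM was 142 (1808 reads) in Ad-GFP day 0, 1.82 (31 reads) in Ad-GFP day 2, 2.77 (40 reads) in Ad-Cre day 0 and 3.89 (52 reads) in Ad-Cre day 2. The level was high in the Ad-GFP library of day 0 and low in the other 3. In that library 198 of the 11861 genes that passed had a higher RPKM, whereas 9979 did in Ad-GFP day 2. *Crabp1* was 78.0-fold lower at day 2 than at day 0 in control cells (log2 ratio -6.28, interval -6.85 to -5.77) and 51.3-fold lower in MLL4 KO than in control cells at day 0 (-5.68, interval -6.17 to -5.23). Among 9904 genes with at least 100 reads in either library of day 0, 2 had a lower log2 ratio of MLL4 KO to control. In MLL4 KO cells the log2 ratio of day 2 to day 0 was 0.49 (interval -0.13 to 1.12), and it turned to -0.36 with the length trend removed, so no direction is read from it. At day 2 the log2 ratio of MLL4 KO to control was 1.10 (interval 0.43 to 1.79), within 2.5-fold, and 0.56 with the length trend removed.

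The preadipocyte markers moved with *Crabp1* at day 0 in part. *Pdgfra* had an RPKM of 73.6 in control and 9.72 in MLL4 KO cells at day 0, *Dlk1* 141 and 10.2, *Cd34* 11.1 and 0.352, and *Ly6a* 9.90 and 0.248. *Thy1* had 294 and 183 and *Pdgfrb* 89.9 and 123. The sum over the 6 markers was 620 in control and 326 in MLL4 KO cells at day 0, and 146 and 130 at day 2. The part of these cells' makeup in the *Crabp1* difference was not tested, and in bulk RNA fewer cells of a type and less RNA per cell cannot be told apart.

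*Crabp2*, the related protein that carries retinoic acid to its receptors (NM_007759; chr3:87752588-87757298, plus strand, 4 exons), had far fewer reads. Its RPKM was 1.36 (21 reads) in Ad-GFP day 0, 0.773 (16 reads) in Ad-GFP day 2, 0.342 (6 reads) in Ad-Cre day 0 and 0.431 (7 reads) in Ad-Cre day 2. Both Ad-GFP libraries were above both Ad-Cre libraries. At day 0 *Crabp2* was 3.97-fold lower in MLL4 KO than in control cells (log2 ratio -1.99, interval -3.59 to -0.63), a ratio that rests on 6 and 21 reads. The log2 ratio of MLL4 KO to control at day 2 was -0.84 (interval -2.37 to 0.52), and the ratios of day 2 to day 0 were -0.81 in control cells (interval -1.85 to 0.20) and 0.34 in MLL4 KO cells (interval -1.46 to 2.18), so none of these 3 could be told from equal levels at this depth.

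*Stra6*, a membrane receptor that takes up retinol (NM_009291; chr9:57911595-58001803, plus strand, 19 exons), did not reach an RPKM of 1. It had 25 reads (RPKM 0.479) in Ad-GFP day 0, 0 in Ad-GFP day 2, 2 in Ad-Cre day 0 and 1 in Ad-Cre day 2. As for *Crabp1*, nearly all reads came from the Ad-GFP library of day 0, in which the summed RPKM of the 6 preadipocyte markers was also highest. Of these markers *Pdgfrb* was higher in Ad-Cre day 0, and the part of the markers' cells in this was not tested. *Stra6* was at least 11.1-fold lower at day 2 than at day 0 in control cells, with day 2 set at a floor of 3 reads in that library. The log2 ratio of MLL4 KO to control at day 0 was -3.83 (interval -6.95 to -1.82), from 2 and 25 reads. Both Ad-Cre libraries were under the floor of 3 reads, and no ratio is given between them or at day 2.

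The enzymes that convert retinol and retinal into each other are represented by *Rdh10* and *Dhrs3*. *Rdh10* oxidizes retinol to retinal (NM_133832; chr1:16095855-16123815, plus strand, 6 exons), and its RPKM was 3.55 (140 reads) in Ad-GFP day 0, 4.13 (218 reads) in Ad-GFP day 2, 2.39 (107 reads) in Ad-Cre day 0 and 2.49 (103 reads) in Ad-Cre day 2. Both Ad-Cre libraries were below both Ad-GFP libraries, and all ratios stayed within 2.5-fold. The log2 ratio of MLL4 KO to control was -0.57 at day 0 (interval -0.95 to -0.20) and -0.73 at day 2 (interval -1.08 to -0.39). The ratio of day 2 to day 0 was 0.22 in control cells (interval -0.09 to 0.54) and 0.06 in MLL4 KO cells (interval -0.35 to 0.46).

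*Dhrs3* reduces retinal back to retinol (NM_011303; chr4:144482730-144518112, plus strand, 6 exons). Its RPKM was 2.41 (71 reads) in Ad-GFP day 0, 8.91 (351 reads) in Ad-GFP day 2, 2.09 (70 reads) in Ad-Cre day 0 and 5.89 (182 reads) in Ad-Cre day 2. Both libraries of day 2 were above both libraries of day 0. *Dhrs3* was 3.70-fold higher at day 2 than at day 0 in control cells (log2 ratio 1.89, interval 1.52 to 2.28) and 2.81-fold higher in MLL4 KO cells (1.49, interval 1.09 to 1.91). With the length trend removed these log2 ratios were 1.81 and 1.21, and the MLL4 KO ratio was then below the log2 cutoff of 1.32. At day 0 the log2 ratio of MLL4 KO to control was -0.20 (interval -0.70 to 0.29), and at day 2 it was -0.60 (interval -0.86 to -0.33). The second transcript of *Dhrs3*, NM_001172424, had 62, 313, 67 and 164 reads in the same order of libraries.

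The 3 retinaldehyde dehydrogenases, which oxidize retinal to retinoic acid, had few reads, and none reached an RPKM of 1. *Aldh1a1* (NM_013467; chr19:20676451-20717952, plus strand, 13 exons) had 0 reads in Ad-GFP day 0, 32 (RPKM 0.685) in Ad-GFP day 2, 1 in Ad-Cre day 0 and 14 (RPKM 0.382) in Ad-Cre day 2. The reads came from the libraries of day 2 in both kinds of cells. *Aldh1a1* was at least 7.98-fold higher at day 2 than at day 0 in control cells, with day 0 set at a floor of 3 reads in that library. In MLL4 KO cells the fold was 15.1, from 14 reads and 1 read (log2 ratio 3.92, interval 1.20 to 9.32). The log2 ratio of MLL4 KO to control at day 2 was -0.84 (interval -1.86 to 0.10).

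*Aldh1a1* values are uncertain for another reason, since 410 of its 2053 exon bases lay in stretches of at least 50 bases with at least 96% identity to another place in the genome, and all 3 stretches matched *Aldh1a7*. How the authors treated reads that match 2 places is not given in the sources used here. *Aldh1a7*, a neighbouring gene of the same family that is not among the 9 and was named after its values were seen (NM_011921; chr19:20767443-20802052, minus strand), had 1, 306, 1 and 45 reads in Ad-GFP day 0, Ad-GFP day 2, Ad-Cre day 0 and Ad-Cre day 2. Its level was thus also high at day 2, with an RPKM of 6.46 in control and 1.21 in MLL4 KO cells. At day 2 *Aldh1a7* was 5.33-fold lower in MLL4 KO than in control cells (log2 ratio -2.42, interval -2.90 to -1.96). No such stretch was found in the other 8 genes, and none of the 9 shared exon bases with another annotated gene.

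*Aldh1a2* (NM_009022; chr9:71063596-71144050, plus strand, 14 exons) had 2 reads in Ad-GFP day 0 and 0 in each of the other 3 libraries, where the floor of 3 reads allows an RPKM of 0.0576 to 0.0735. *Aldh1a3* (NM_053080; chr7:73535778-73572403, minus strand, 13 exons) had 7, 10, 14 and 4 reads, an RPKM of 0.120, 0.128, 0.211 and 0.0652, in Ad-GFP day 0, Ad-GFP day 2, Ad-Cre day 0 and Ad-Cre day 2. Its widest ratio was that of day 2 to day 0 in MLL4 KO cells, with a log2 value of -1.69 (interval -3.75 to -0.02) from 4 and 14 reads.

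*Cyp26b1*, a cytochrome P450 that hydroxylates and so inactivates retinoic acid (NM_175475; chr6:84521938-84543740, minus strand, 6 exons), was the gene of the 5 that passed with a level more than 2.5-fold higher in MLL4 KO than in control cells, at day 0. Its RPKM was 0.649 (53 reads) in Ad-GFP day 0, 1.26 (138 reads) in Ad-GFP day 2, 2.08 (193 reads) in Ad-Cre day 0 and 1.67 (143 reads) in Ad-Cre day 2. Both Ad-Cre libraries were above both Ad-GFP libraries. At day 0 *Cyp26b1* was 3.21-fold higher in MLL4 KO than in control cells (log2 ratio 1.68, interval 1.24 to 2.15). The lower bound is under the log2 cutoff of 1.32, and with a pseudocount of 1 RPKM the log2 ratio was 0.90 and no longer past it. Of 9904 genes with at least 100 reads in either library, 95 had a higher ratio. At day 2 the log2 ratio was 0.40 (interval 0.05 to 0.75), and 0.95 with the length trend removed. In control cells the level was 1.95-fold higher at day 2 than at day 0 (log2 ratio 0.96, interval 0.50 to 1.45), which is within 2.5-fold. In MLL4 KO cells the log2 ratio of day 2 to day 0 was -0.32 (interval -0.64 to 0.00), and 0.07 with the length trend removed. The second transcript, NM_001177713, had 52, 139, 192 and 143 reads.

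**Figure D2:**
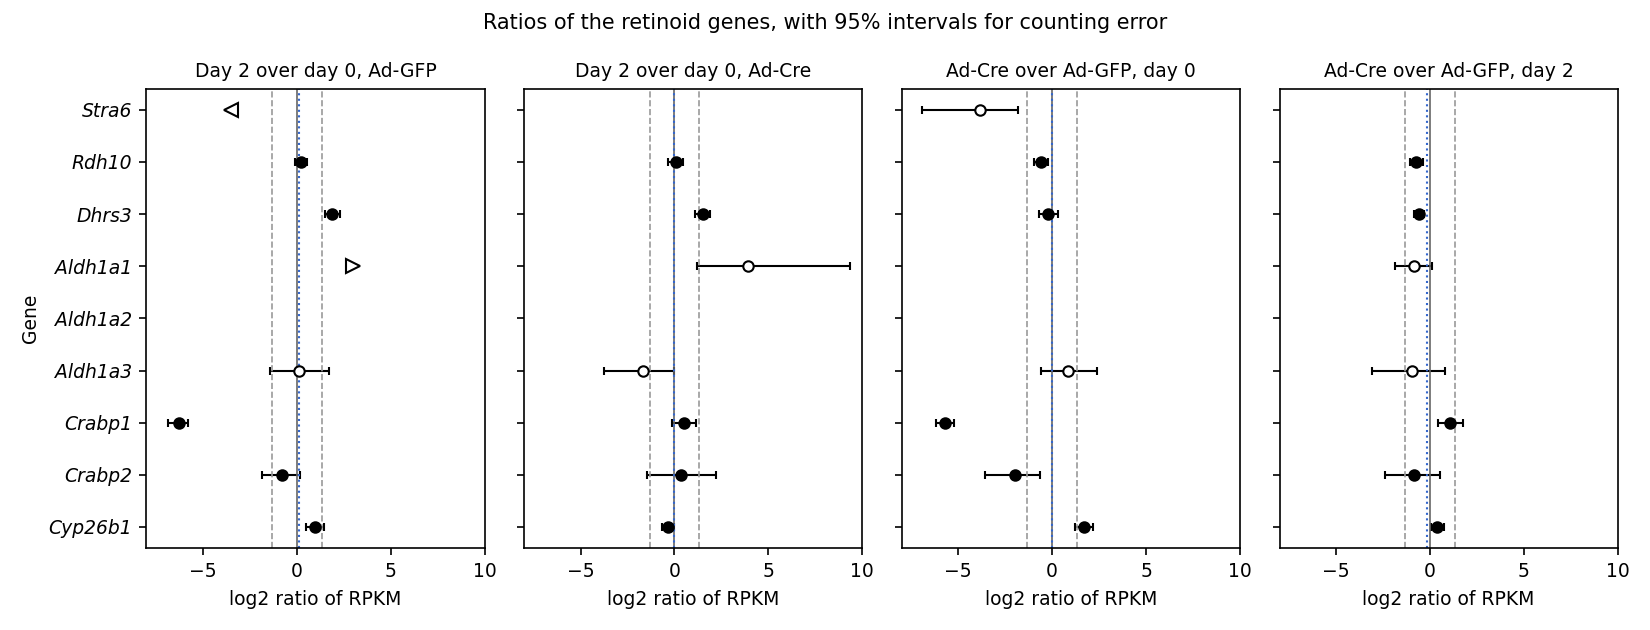
Log2 ratio of RPKM of the retinoid genes in the 4 comparisons, with bars for the exact 95% interval of the read ratio, dashed lines at 2.5-fold and a dotted line at the median of all genes. Filled points are the 5 genes that passed an RPKM of 1 and open points those that did not. Triangles are ratios to a floor of 3 reads, without an interval. Crabp1 lies at -6.28 for Ad-GFP day 2 over day 0 and at -5.68 for Ad-Cre over Ad-GFP at day 0.

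The first comparison asks what differs between day 0 and day 2 of adipogenesis in control cells. Of the 5 genes that passed, *Dhrs3* was more than 2.5-fold higher and *Crabp1* more than 2.5-fold lower at day 2, against 8.44% of all genes higher and 13.1% lower. The median log2 ratio of the 5 genes was 0.22, and that of all genes 0.14. In MLL4 KO cells *Dhrs3* was higher and no gene lower, against 9.62% and 10.5% of all genes, with a median of 0.34 over the 5 genes and -0.01 over all genes.

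At day 0, the comparison of MLL4 KO with control cells asks what differs without MLL4 before adipogenesis starts. *Cyp26b1* was higher and *Crabp1* and *Crabp2* were lower, which is 3 of the 5 genes, against 2.09% of all genes higher and 4.18% lower. *Crabp2* was among the 5 through the Ad-GFP library of day 0 alone, the library in which it was highest, so its place in this count follows in part from the filter and nothing is read from it. The median log2 ratio of the 5 genes, *Crabp2* among them, was -0.57 and that of all genes -0.02, and nothing is read from this median either. At day 2 none of the 5 genes was past 2.5-fold in either direction, against 9.6% of all genes higher and 9.89% lower, and the medians were -0.60 and -0.14. TMM scaling moved the median of all genes at day 2 to -0.01, and the median of the 5 genes to -0.46. It also turned the split of all genes past 2.5-fold at day 2 from 1137 higher and 1171 lower to 1338 higher and 911 lower. With 5 genes these counts describe the genes named and no wider group. The comparisons share libraries: Ad-GFP day 0 enters both the comparison of days in control cells and that at day 0, so its 1808 *Crabp1* reads set both of the large *Crabp1* ratios.

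**Figure D3:**
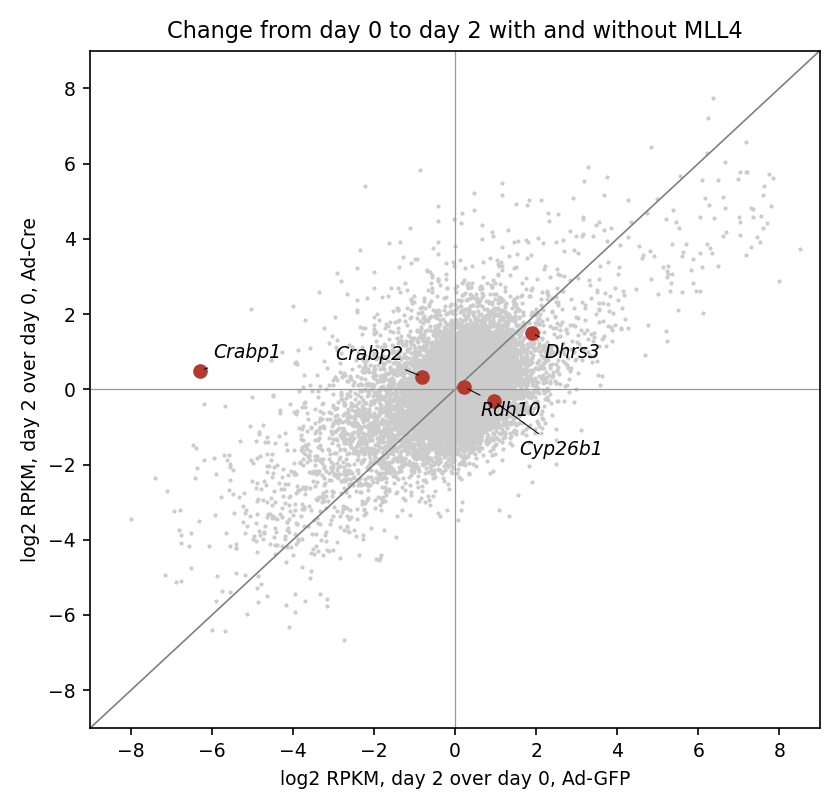
Log2 ratio of day 2 to day 0 in control cells (x axis) and in MLL4 KO cells (y axis) for all genes that passed (grey) and for the 5 retinoid genes that passed (red), with a diagonal where both are equal. Crabp1 lies far to the left of the diagonal, Cyp26b1 below it, and Rdh10 and Dhrs3 close to it.

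The log2 ratio of day 2 to day 0 in MLL4 KO cells minus that in control cells was 6.78 for *Crabp1* (interval 5.99 to 7.56) and -1.28 for *Cyp26b1* (interval -1.83 to -0.73). Both intervals exclude equal ratios as far as counting error goes, and the *Cyp26b1* difference came to -0.66 with a pseudocount of 1 RPKM and to -0.76 with the length trend removed. For *Dhrs3* the difference was -0.39 (interval -0.94 to 0.15) and for *Rdh10* -0.16 (interval -0.66 to 0.33). For *Crabp2* it was 1.15 (interval -0.68 to 2.98) and for *Aldh1a3* -1.79 (interval -3.91 to 0.33), with bounds too wide at this depth to tell them from equal ratios. The differences of *Stra6*, *Aldh1a1* and *Aldh1a2* were not computed, since each had a library without a read.

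The order of the RPKM levels differed between the libraries. In Ad-GFP day 0 *Crabp1* was first and its interval lay apart from that of *Rdh10*, the next gene. *Dhrs3*, *Crabp2*, *Cyp26b1* and *Stra6* followed, with each neighbour overlapping the next. In Ad-GFP day 2 *Dhrs3* led and lay apart from *Rdh10*, and *Rdh10* lay apart from *Crabp1* below it. *Crabp1* overlapped *Cyp26b1*, the next gene. In Ad-Cre day 0 the first 4 genes were *Crabp1*, *Rdh10*, *Dhrs3* and *Cyp26b1*, and neighbours among them overlapped. In Ad-Cre day 2 *Dhrs3*, *Crabp1* and *Rdh10* came first, with overlapping neighbours, and *Cyp26b1* lay apart below them. *Aldh1a2* and *Aldh1a3* were among the last 4 genes in every library.

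**Figure D4:**
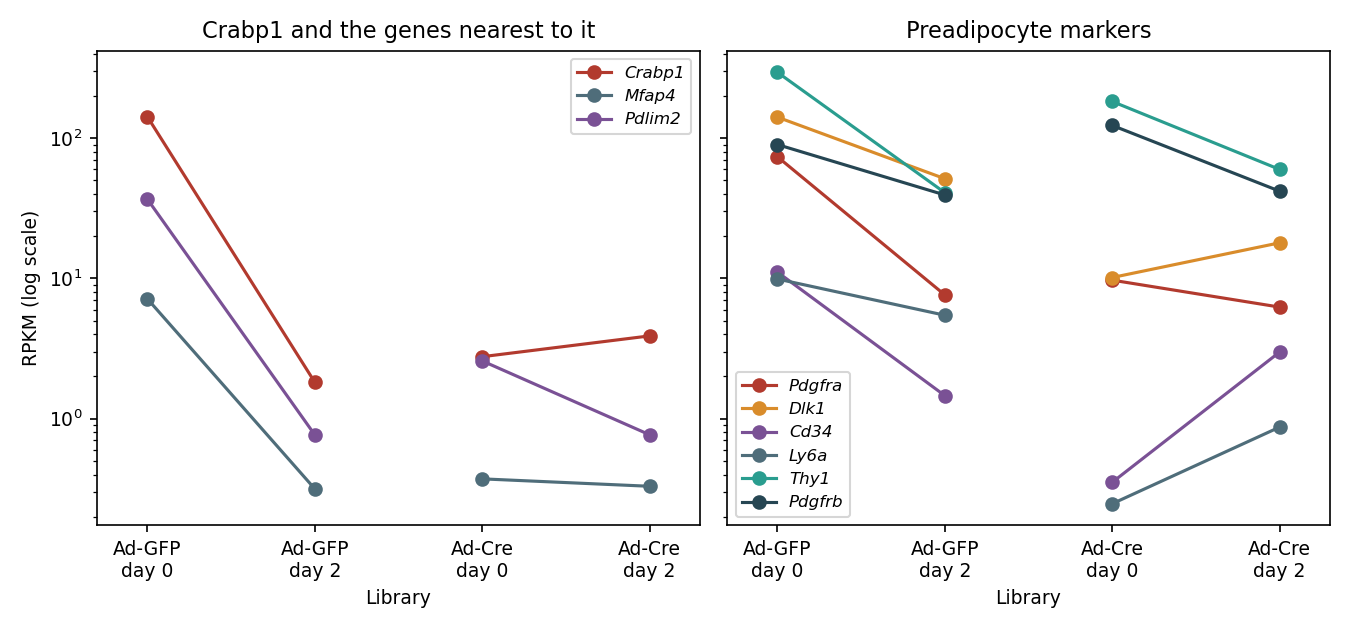
RPKM (log axis) in the 4 libraries of Crabp1, Mfap4 and Pdlim2 (left) and of the 6 preadipocyte markers (right), with lines joining day 0 and day 2 of the same cells. Crabp1, Mfap4 and Pdlim2 are highest in Ad-GFP day 0, whereas Thy1 and Pdgfrb are high at day 0 in both kinds of cells.

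The genes whose pattern over the 4 libraries was nearest to that of *Crabp1*, *Dhrs3* and *Cyp26b1* were found by the Euclidean distance between values of log2(RPKM + 0.1) centred on their mean, among 11306 genes. With 4 points, of which 1 can set the pattern, this is a description. *Mfap4*, which encodes an extracellular matrix protein, was nearest to *Crabp1* (distance 1.58), with 186, 11, 11 and 9 reads in Ad-GFP day 0, Ad-GFP day 2, Ad-Cre day 0 and Ad-Cre day 2. *Pdlim2*, which encodes a PDZ and LIM domain protein, was next (distance 1.64), with 1001, 28, 80 and 22 reads. Both had most reads in Ad-GFP day 0, as *Crabp1* did, and *Pdlim2* differed in being lower at day 2 than at day 0 in MLL4 KO cells as well. *Coq9*, which takes part in coenzyme Q synthesis, was near to *Dhrs3* (distance 0.197; 570, 2389, 535 and 1204 reads), as was *Catsper2*, a sperm cation channel gene (distance 0.179; 16, 103, 15 and 51 reads). *Neurl1b*, a ubiquitin ligase gene (distance 0.265; 192, 376, 642 and 438 reads), and *Agrn*, which encodes agrin (distance 0.321; 2677, 5886, 8222 and 4918 reads), were nearest to *Cyp26b1*.

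**Figure D5:**
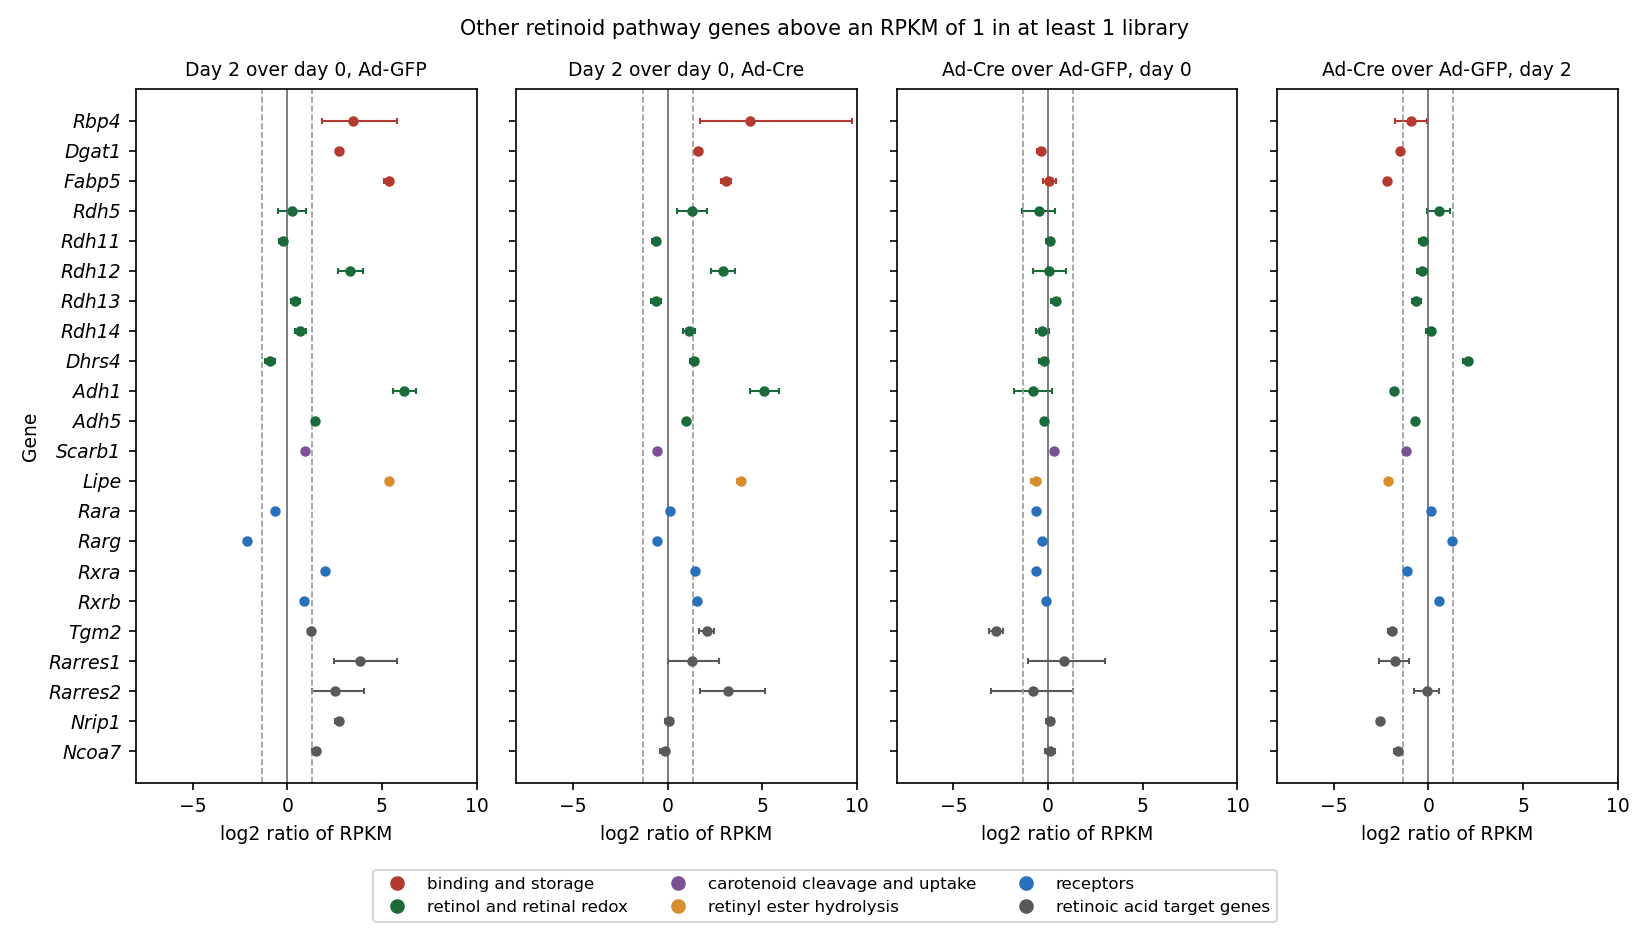
Log2 ratio of RPKM in the 4 comparisons for the retinoid pathway genes other than the 9 that passed an RPKM of 1, grouped by role, with bars for the exact 95% interval of the read ratio and dashed lines at 2.5-fold. Rbp4 has no point at day 0, where it had 3 reads and 1 read. Adh1 lies at 6.16 for Ad-GFP day 2 over day 0, and most of the larger ratios of day 2 to day 0 are above 0.

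A list of 46 other retinoid pathway genes, grouped by role and chosen with earlier results of these data known, gives the surroundings of the 9. Of these, 45 were listed in the files, 22 passed an RPKM of 1, and 16 had at most 3 reads over all 4 libraries, among them *Lrat*, which makes retinyl esters, *Cyp26a1* and *Cyp26c1*, the other retinoic acid hydroxylases, and *Rxrg*. Past 2.5-fold, 12 of the 22 were higher and 1 lower at day 2 than at day 0 in control cells, against 8.44% and 13.1% of all genes, and 11 higher and 0 lower in MLL4 KO cells, against 9.62% and 10.5%. Between MLL4 KO and control cells, 0 were higher and 2 lower at day 0, against 2.09% and 4.18% of all genes, and 1 higher and 8 lower at day 2, against 9.6% and 9.89%. *Rbp4* and *Rarres1* passed the RPKM filter through Ad-GFP day 2 alone, and *Rdh12* and *Rarres2* through the libraries of day 2 alone. Their places in these counts follow in part from the filter, and nothing is read from them. The summed RPKM of the fat cell markers was 1999 in control and 490 in MLL4 KO cells at day 2, and their part in these counts was not tested. The medians of the 22 were 1.497, 1.33, -0.26 and -0.80 in these comparisons, beside 0.14, -0.01, -0.02 and -0.14 for all genes. *Rbp4*, *Rarres1*, *Rdh12* and *Rarres2* are in these medians, which thus also follow in part from the filter. Nothing is read from the medians either.

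Among the genes for binding and storage, *Rbp4*, the plasma carrier of retinol, had 3, 45, 1 and 19 reads in Ad-GFP day 0, Ad-GFP day 2, Ad-Cre day 0 and Ad-Cre day 2 and was higher at day 2 in both kinds of cells, and its count among the 2 genes lower at day 0 rests on 3 reads and 1 read. *Dgat1* and *Fabp5*, which also act in triglyceride synthesis and fatty acid binding, had log2 ratios of day 2 to day 0 of 2.73 and 5.35 in control and 1.61 and 3.08 in MLL4 KO cells, and were lower in MLL4 KO than in control cells at day 2 (-1.48 and -2.20).

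Of the 16 genes for retinol and retinal redox, 8 passed. *Adh1*, an alcohol dehydrogenase that oxidizes retinol and ethanol, had 24, 2289, 16 and 502 reads, and its log2 ratio between day 2 and day 0 was 6.16 in control and 5.09 in MLL4 KO cells. At day 2 *Adh1* was lower in MLL4 KO than in control cells (-1.84). *Adh5*, which mainly handles formaldehyde, had a log2 ratio of 1.46 in control cells, and *Rdh12*, a retinal reductase, had 3.31 and 2.91 in control and MLL4 KO cells. *Dhrs4*, another retinal reductase, had 209 reads in control and 691 in MLL4 KO cells at day 2 (log2 ratio of MLL4 KO to control 2.08), and was the gene of the 22 that was more than 2.5-fold higher there. The *Dhrs4* log2 ratio of day 2 to day 0 in MLL4 KO cells, 1.38, came to 0.91 with the length trend removed. *Lipe*, hormone-sensitive lipase, which cleaves triglycerides as well as retinyl esters, had 5.35 and 3.85 and was lower in MLL4 KO than in control cells at day 2 (-2.14). *Scarb1*, a lipoprotein receptor that also takes up carotenoids, had an RPKM of 28.1, 53.7, 34.8 and 23.6, within 2.5-fold in every comparison.

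Of the 6 retinoid receptors, *Rara*, *Rarg*, *Rxra* and *Rxrb* passed, and *Rarb* and *Rxrg* did not. *Rarg* had 2014, 615, 1848 and 1153 reads in Ad-GFP day 0, Ad-GFP day 2, Ad-Cre day 0 and Ad-Cre day 2, and was lower at day 2 than at day 0 in control cells (log2 ratio -2.13, interval -2.26 to -2.00), with -0.57 in MLL4 KO cells. At day 2 the *Rarg* log2 ratio of MLL4 KO to control was 1.26 (interval 1.11 to 1.40), within 2.5-fold. It was past that limit under TMM scaling (1.39) and with the length trend removed (1.46). *Rxra*, the partner of PPARG as well as of the retinoic acid receptors, had an RPKM of 146 in control and 65.4 in MLL4 KO cells at day 2, and was higher at day 2 than at day 0 in both (2.00 and 1.47). *Rxrb* was higher at day 2 in MLL4 KO cells (1.53), where its RPKM of 64.5 was within the counting error of that of *Rxra*.

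Of the 8 genes listed as targets of retinoic acid, 5 passed, and 4 of these were higher and 0 lower at day 2 than at day 0 in control cells, against 8.44% and 13.1% of all genes. *Rarres1* passed through Ad-GFP day 2 alone and *Rarres2* through the libraries of day 2 alone. Their places in this count follow in part from the filter, and nothing is read from the count. *Rarres2*, which encodes chemerin, was higher at day 2 in both kinds of cells (log2 ratio 2.52 in control and 3.20 in MLL4 KO cells). These *Rarres2* ratios rest on 46 and 6 reads in control and 34 and 4 reads in MLL4 KO cells. *Rarres1* (3.87), *Nrip1*, a nuclear receptor corepressor (2.71), and *Ncoa7* (1.53) were higher at day 2 in control cells. At day 2 these genes were lower in MLL4 KO than in control cells (-1.77, -2.54 and -1.59). That *Ncoa7* ratio was within 2.5-fold with the length trend removed. In MLL4 KO cells their log2 ratios of day 2 to day 0 were 1.28, 0.08 and -0.16, each within 2.5-fold. *Rarres1* had 4, 78, 8 and 18 reads in Ad-GFP day 0, Ad-GFP day 2, Ad-Cre day 0 and Ad-Cre day 2. *Tgm2*, transglutaminase 2, was lower in MLL4 KO than in control cells at both days (-2.73 at day 0 and -1.92 at day 2), and higher at day 2 than at day 0 in MLL4 KO cells (2.07).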

How the data were processed

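RNA-Seq was examined in 4 libraries, 1 for each infection and day. The labels give WT or MLL4 KO and the day, and the names Ad-GFP and Ad-Cre come from the paper's methods. The authors sequenced 50-base reads, used the Illumina Analysis Pipeline, aligned to NCBI37/mm9 and took reads on RefSeq exons. The authors deposited whole-number read counts per transcript, without normalization. They also deposited RPKM values, which the authors scaled by exon length and mapped reads. How reads with several matches and the strand were handled is not given in the sources used here.

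Symbols came from a RefSeq gene table (GRCm38.p6, names alone) through the RefSeq accession, and were found for 97.8% of transcripts. Each gene was represented by its transcript with most reads. A gene was counted as higher or lower past a 2.5-fold ratio of the deposited RPKM, without pseudocount, if its RPKM was above 1 in at least 1 library. Intervals are exact Poisson for levels and exact binomial (Clopper-Pearson) for ratios, at 95%, with a normal approximation for differences of 2 log2 ratios. A fold against a library without a read uses a floor of 3 reads there and has no interval. The 2.5-fold limit follows the paper's methods. The calculation of the ratios was run on simulated Poisson counts, without a length trend or a spread between replicates. That checks the arithmetic for genes with many reads and says nothing on these data. The genes named are the 9, the pathway genes that passed the RPKM filter and were past 2.5-fold or highest of their role, the 2 nearest genes of 3 of the 9, *Kmt2d*, and the cell type markers. *Rdh13*, *Rara*, *Rarb*, *Rxrg*, *Lrat*, *Cyp26a1*, *Cyp26c1* and *Aldh1a7* lie outside this rule and were named after their values were seen. The 9 genes and all lists were chosen with earlier results of these data known. The settings varied were the scaling (TMM factors, sums of counts), a pseudocount of 1 RPKM, the RPKM and read filters, the fold limit, the use of all transcripts, the interval bound and, added later, the length trend, removed by the median of 20 length bins. TMM factors came from edgeR 4.0.16 in R 4.3.3, with no edgeR test. Positions came from GENCODE vM1 on NCBI37/mm9, repeats from blastn 2.17.0, and promoter windows from RefSeq (GRCm38.p6). Python 3.11.15, numpy 2.4.6, pandas 2.3.3, scipy 1.17.1 and matplotlib 3.10.9 were used. Some listed pathway genes are not reported here and were left out of the list's counts. ChIP-Seq data were not used here.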

Additional observations from a re-analysis of the deposited data

Results flagged for a closer look

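Some genes had log2 ratios of day 2 to day 0 of opposite sign in control and MLL4 KO cells. With 1 library per condition the differences were not tested. *Crabp1* had -6.28 in control and 0.49 in MLL4 KO cells, a difference of 6.78, and the MLL4 KO value changes sign with the length trend removed. *Cyp26b1* had 0.96 and -0.32, a difference of -1.28, and its MLL4 KO value is 0.07 with the length trend removed, so the signs are then alike. *Dhrs4* had -0.92 and 1.38 (difference 2.30) and *Scarb1* had 0.93 and -0.56 (difference -1.50). *Rdh13*, a mitochondrial retinal reductase, had 0.43 and -0.62 (difference -1.05), and *Rara*, a retinoic acid receptor, had -0.66 and 0.10 (difference 0.76; the interval of the second value, -0.02 to 0.22, holds 0). *Ncoa7* had 1.53 and -0.16 (difference -1.70), and its MLL4 KO value is 0.30 with the length trend removed.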

How the results depend on the processing

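Of the 5 genes that passed, 2, 1, 3 and 0 were past 2.5-fold in Ad-GFP day 2 over day 0, Ad-Cre day 2 over day 0, Ad-Cre over Ad-GFP at day 0 and Ad-Cre over Ad-GFP at day 2. With a pseudocount of 1 RPKM the counts came to 0 for Ad-Cre day 2 over day 0 and to 1 for day 0, where *Cyp26b1* and *Crabp2* were no longer past the limit, and the median log2 ratio in the fourth to -0.31. A 2-fold limit gave 1 in the fourth. A 4-fold limit gave 1, 0 and 1 in the first 3, where 450, 510 and 117 of all genes were higher and 951, 563 and 264 lower past it, against 1000, 1140 and 247 higher and 1547, 1239 and 495 lower past 2.5-fold. An RPKM above 0.5 gave 2 in the second, since *Aldh1a1* then passed, against 1328 higher and 1420 lower of 12661 genes. With no RPKM filter the counts were 5, 3, 6 and 1, where a ratio with no read on one side was counted as past the limit. These counts include genes at or under the floor of 3 reads. They are *Aldh1a2* in the first comparison, *Aldh1a1* and *Aldh1a2* at day 0, and *Stra6* in the fourth. Asking that the interval lie past 2.5-fold gave 0 in the second and 1 at day 0. Removing the length trend gave 0 in the second, where 907 of all genes were higher and 1147 lower. Of 48 such counts 34 stayed within 1.5 times, as did all counts under TMM factors, sums of counts, the mean of transcripts, a minimum of 20 reads and an RPKM above 1 in Ad-GFP. Of all genes, 1137 were higher and 1171 lower in the fourth comparison, and 1338 and 911 under TMM factors, 1334 and 916 with sums of counts, and 1187 and 772 without the length trend. Sums of counts turned the second from 1140 higher and 1239 lower to 1462 and 991. In the same order of comparisons, a pseudocount of 1 RPKM gave 607, 628, 101 and 632 higher and 975, 684, 203 and 560 lower, a 2-fold limit 1711, 1829, 406 and 1685 higher and 1949, 1956, 749 and 2075 lower, no RPKM filter 2147, 2843, 1205 and 2977 higher and 3185, 2427, 1750 and 2217 lower, and intervals past 2.5-fold 616, 635, 105 and 679 higher and 1161, 810, 266 and 681 lower. An RPKM above 1 in Ad-GFP gave 146 higher at day 0. A 4-fold limit gave 540 higher and 363 lower in the fourth. Without the length trend the medians over the 5 genes in the comparisons of days lay just below 0. No ratio past 2.5-fold changed direction under the settings run. No paired analysis was possible because each condition has 1 library, and no library could be left out. Depth limits *Stra6*, *Crabp2* and the 3 *Aldh1a* genes, which had at most 32 reads in a library.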
